A study of Mus musculus with 9 samples.

Results

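The epithelium and the mesenchyme of the fetal mouse intestine were compared gene by gene. The 6 libraries, 3 of epithelium and 3 of mesenchyme, were taken by their labels out of 9 in the series, and the members of the comparison are all genes counted in them. The epithelium came from wild type C57BL/6 embryos at E14.5 with no agent given, and the mesenchyme came from embryos of the same strain, genotype and age, also with no agent. The study grew harvested intestines for 24 hours in transwell culture and sequenced separated layers or whole intestines, and the remaining 3 libraries are whole intestines under cyclopamine, an inhibitor of Hedgehog signalling, which are not used here. The labels do not say whether the layers were separated before or after culture, nor whether embryos were pooled, so the spread behind each p-value is that among the libraries and may be technical.

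The intestine at this stage is a tube of epithelium of endodermal origin inside a sleeve of mesodermal mesenchyme. Epithelial cells are joined by adherens junctions, tight junctions and desmosomes, are polarised from apex to base, and will form the absorptive and secretory lining. The mesenchyme lays down collagen-rich matrix, forms smooth muscle and fibroblasts, and holds the vessels, blood cells and migrating enteric neural crest, and the layers signal to each other while villi form.

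The 6 libraries kept between 3284702 and 26302836 counts after removal of the rows Rn45s, Lars2 and Mir6236, which collect ribosomal reads. These rows took 66.3% of mesenchyme 1, which is the shallowest library, and between 0.137% and 0.709% of the other 5. The first principal component held 89.5% of the variance of log counts and separated the layers. The Spearman correlation across genes was 0.986 to 0.992 between epithelium libraries, 0.943 to 0.987 between mesenchyme libraries and 0.70 to 0.79 between layers. Each pair of libraries of a layer differed by more than sampling noise, so none was counted as a duplicate.

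Both layers carried the defining markers of their label. Levels are given as CPM, the counts of a gene scaled to a common library total, in the order of libraries 1, 2 and 3, and each difference is the log2 ratio of epithelium to mesenchyme with its standard error (SE) from edgeR's quasi-likelihood test, whose p-values were adjusted by the Benjamini-Hochberg method over all genes tested. Epcam, an epithelial adhesion molecule, had 883, 924 and 897 CPM in epithelium and 23.2, 23.1 and 25 CPM in mesenchyme. Cdh1, which encodes E-cadherin, had 943, 1039.8 and 988 CPM in epithelium and 28.5, 29.8 and 19.8 CPM in mesenchyme. Vil1, the actin bundler villin of the brush border, had 348, 357 and 327 CPM in epithelium and 8.37, 3.37 and 7.88 CPM in mesenchyme. For these 3 genes every epithelium library lay far above every mesenchyme library, and the differences were 5.24 ± 0.15, 5.26 ± 0.22 and 5.78 ± 0.37 (adjusted p = 1.43e-05, 2.76e-05 and 5.87e-05, edgeR).

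On the mesenchymal side, Pdgfra, a growth factor receptor of fibroblasts, had 41.7, 14.7 and 5.05 CPM in epithelium and 632, 519 and 771 CPM in mesenchyme. Foxf1, a forkhead factor of gut mesoderm, had 23.9, 10.7 and 5.05 CPM in epithelium and 486, 434 and 427 CPM in mesenchyme. Acta2, smooth muscle actin, had 76.2, 31.1 and 18.1 CPM in epithelium and 712, 1083 and 1203 CPM in mesenchyme. The groups did not overlap for any of these 3 genes, and the differences were -4.96 ± 0.76, -5.08 ± 0.57 and -4.58 ± 0.58 (adjusted p = 0.00112, 0.000297 and 0.000495, edgeR). Within the epithelium all 3 were highest in library 1 and lowest in library 3. The summed CPM of 44 collagen genes in epithelium 1, 2 and 3 was 8.79%, 2.73% and 1.64% of the mesenchyme mean, and that of 14 endothelial markers was 6.90%, 2.43% and 1.82%. In the other direction, the summed CPM of 48 keratin genes in mesenchyme 1, 2 and 3 was 5.46%, 7.45% and 5.78% of the epithelium mean. Whether this is RNA of the other layer in a separated sample or expression by the layer itself was not tested, and in bulk samples fewer cells of a type and less RNA per cell cannot be told apart.

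**Figure D1:**
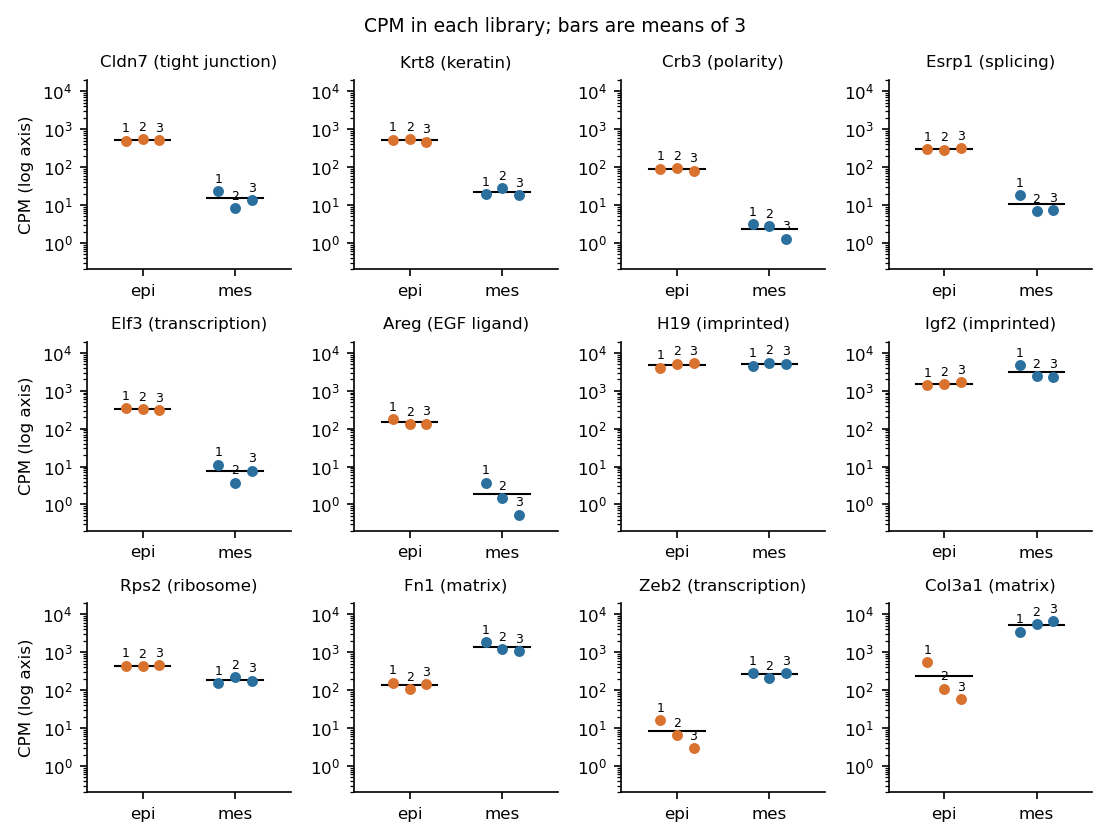
CPM on a log axis of 12 genes in the epithelium libraries (left of each panel) and the mesenchyme libraries (right), numbered by replicate, with bars at the means of 3. Cldn7, Krt8, Crb3, Esrp1, Elf3 and Areg lie higher in epithelium, H19 lies at the same height in both, Rps2 differs by 1.26 on the log2 scale, and Col3a1 and Zeb2 show the spread among epithelium libraries that Fn1 does not.

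Most genes differed between the layers. Of 15416 genes tested, 9810 (63.6%) passed an adjusted p of 0.05 by edgeR, 4558 of them (29.6%) higher in epithelium and 5252 (34.1%) higher in mesenchyme. The values of the 3 and 3 libraries did not overlap for 11331 genes (73.5%). The median log2 difference over all genes was -0.01. Large differences were uneven: 749 genes (4.86%) were called and at least 8-fold higher in epithelium, against 2232 at least 8-fold higher in mesenchyme, together 19.3% of genes tested. The 749 genes took 6.13%, 6.10% and 5.68% of counts in the epithelium libraries and 0.368%, 0.271% and 0.286% in the mesenchyme libraries. The 2232 genes took 1.40%, 0.630% and 0.567% in the epithelium libraries and 15.8%, 14.3% and 15.4% in the mesenchyme libraries.

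The surplus of large differences on the mesenchymal side was widest among genes of low level. In the lowest of 5 equal groups of genes by mean CPM, up to 4.82 CPM, 17.8% were called higher in epithelium and 48.6% in mesenchyme, and 7.68% and 28.9% at least 8-fold. The filter on counts had to be met in 3 libraries only, so a gene of low level could enter through 1 layer alone. The part of this filter in the shares of the lowest group was not tested. In the highest group, above 92.1 CPM, 36.0% were called higher in epithelium and 23.9% in mesenchyme, and 2.95% and 6.65% at least 8-fold. Differences of at least 32-fold were found for 201 genes higher in epithelium and 273 higher in mesenchyme. They were 197 and 974 without epithelium 1, and 220 and 141 without epithelium 3. At 64-fold the counts were 39 and 16 with all libraries, 31 and 338 without epithelium 1, 42 and 46 without epithelium 2, and 52 and 42 without epithelium 3. They were 62 and 26 without mesenchyme 1, 84 and 30 without mesenchyme 2, and 94 and 19 without mesenchyme 3. The height of the largest folds thus depended on single libraries, while no gene called with all libraries was called in the opposite direction under any alternative run.

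**Figure D2:**
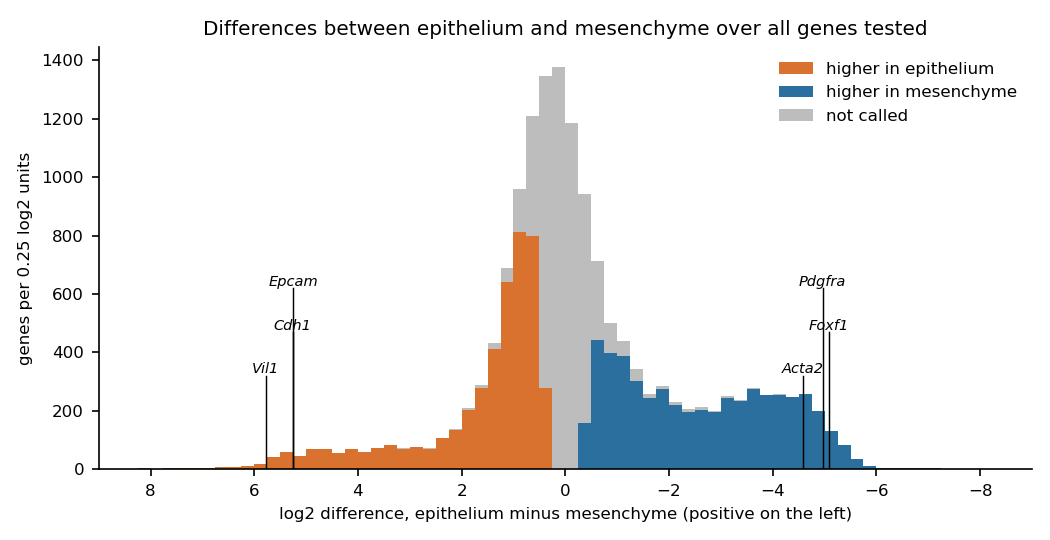
Genes tested by their log2 difference, epithelium minus mesenchyme, in bins of 0.25, with positive values on the left and colours for the call at adjusted p under 0.05. The epithelial side tails off to the left, with Epcam, Cdh1 and Vil1 at 5.24, 5.26 and 5.78, and the mesenchymal side has a broad shoulder that ends near Pdgfra, Foxf1 and Acta2.

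Junction genes were higher in epithelium. Of 27 tight junction genes looked for, 25 were tested, with 18 higher in epithelium and 5 in mesenchyme, and had a median of 3.91. Cldn7, a claudin that seals the space between epithelial cells, had 505, 551 and 524 CPM in epithelium and 23.6, 8.12 and 13.3 CPM in mesenchyme. Its difference was 5.21 ± 0.40 (adjusted p = 8.79e-05, edgeR), and every epithelium library lay far above every mesenchyme library. Ocln, the strand protein occludin, had a difference of 5.19 ± 0.35, Cldn4 of 4.76 ± 0.24 and Cldn2, a pore-forming claudin, of 5.22 ± 0.42. The genes that went the other way included Cldn5, the claudin of vessels, with 2.9, 1.25 and 0.80 CPM in epithelium and 30.7, 51.9 and 51.1 CPM in mesenchyme, and Cldn11, a claudin of myelin and testis, at -4.47 ± 0.57. The scaffold gene Tjp1, chosen after its values were seen, had 289, 291 and 293 CPM in epithelium and 399, 309 and 359 CPM in mesenchyme and was not called (-0.29 ± 0.14, adjusted p = 0.104, edgeR).

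Desmosome and keratin genes followed the same pattern. Of 20 genes, 17 were tested, 14 were higher in epithelium and 1 was higher in mesenchyme, with a median of 4.14. Krt8, a keratin of simple epithelia, had 531, 551 and 471 CPM in epithelium and 19.2, 28.4 and 18.2 CPM in mesenchyme. Krt19, another keratin of simple epithelia, had 575, 615 and 565 CPM in epithelium and 32.2, 30.4 and 30.0 CPM in mesenchyme, with a difference of 4.25 ± 0.13. Dsc2, a desmosomal cadherin, differed by 5.26 ± 0.26, Pkp3, a desmosomal plaque protein, by 5.02 ± 0.17, and Perp, a membrane protein of desmosomes, by 5.40 ± 0.24. The exception was Krt14, a keratin of stratified epithelia, which had 1.16, 0.463 and 0.80 CPM in epithelium and 3.1, 4.6 and 3.98 CPM in mesenchyme.

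Genes of apical polarity and sorting were higher in epithelium for 17 of 21 tested (22 looked for) and higher in mesenchyme for 2, with a median of 2.87. Crb3, a crumbs protein that marks the apical membrane, had 91.1, 92.3 and 80.7 CPM in epithelium and 3.1, 2.74 and 1.3 CPM in mesenchyme. Its difference was 5.34 ± 0.33 (adjusted p = 5.5e-05, edgeR). Ap1m2, the epithelial subunit of the AP-1 clathrin adaptor, had 121, 126 and 108 CPM in epithelium and 2.79, 2.64 and 2.06 CPM in mesenchyme. Rab25, a Rab11 family GTPase of epithelial recycling endosomes, had 74.3, 70.1 and 69.6 CPM in epithelium and 1.55, 1.52 and 1.53 CPM in mesenchyme, and Myo5b, a motor that works with Rab11 vesicles, differed by 5.21 ± 0.35. Llgl1, a basolateral polarity protein, had 99.9, 103 and 109 CPM in epithelium and 188, 164 and 178 CPM in mesenchyme and was lower in epithelium. Its paralog Llgl2, chosen after its values were seen, had 188, 205 and 189.8 CPM in epithelium and 8.37, 6.31 and 7.91 CPM in mesenchyme.

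The scaffold of the brush border was higher in epithelium. Of 20 genes, all tested, 18 were called higher in epithelium and none in mesenchyme, with a median of 3.92. Myo1a, the myosin that links microvillar actin to the membrane, had 125, 114 and 99 CPM in epithelium and 1.55, 1.61 and 1.41 CPM in mesenchyme, a difference of 6.21 ± 0.19 (adjusted p = 1.43e-05, edgeR). Ezr, encoding the membrane linker ezrin, had 680.4, 684 and 659 CPM in epithelium and 45.2, 53.1 and 55.9 CPM in mesenchyme. Cdhr2, a protocadherin that joins microvillar tips, differed by 5.61 ± 0.52, its scaffold partner Anks4b by 5.65 ± 0.44 and the motor Myo7b by 5.52 ± 0.73.

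Of 33 genes of digestion and uptake, 29 were tested, with 20 higher in epithelium and 2 in mesenchyme, and had a median of 3.25. Slc5a1, the sodium-glucose cotransporter, had 40.6, 39.2 and 40.3 CPM in epithelium and 2.17, 0.587 and 1.8 CPM in mesenchyme. Alpi, intestinal alkaline phosphatase, had 14.9, 19.1 and 9.4 CPM in epithelium and 0, 0.245 and 0.765 CPM in mesenchyme, and Amn, a subunit of the vitamin B12 receptor, differed by 5.41 ± 0.39. Lct, lactase, chosen after its values were seen, had 0.715, 1.58 and 1.45 CPM in epithelium and 2.48, 0.489 and 0.765 CPM in mesenchyme and was not called (adjusted p = 0.602, edgeR). The genes higher in mesenchyme were Enpep, a peptidase that vessels also carry, and Cybrd1, a ferric reductase. Enpep had 190.0, 150.3 and 179 CPM in epithelium and 282, 314 and 422 CPM in mesenchyme. Cybrd1 had 12.5, 8.48 and 6.7 CPM in epithelium and 85.2, 44.3 and 54.7 CPM in mesenchyme.

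Among genes of detoxifying enzymes and their relatives, the Ugt genes, most of which encode glucuronosyltransferases, lay almost wholly on the epithelial side. Of 17 tested out of 21, 16 were higher in epithelium, with a median of 4.63. The exception was Ugt8a, a relative that makes myelin lipids, which was lower in epithelium (3.13, 2.32 and 2.9 CPM in epithelium and 6.51, 6.9 and 7.69 CPM in mesenchyme). The 8 Ugt1a genes tested share their last exons and had nearly the same means, 103 to 151 CPM in epithelium and 3.98 to 6.33 CPM in mesenchyme, so reads of single members cannot be told apart. Of 20 Gst genes tested, 15 were higher in epithelium and 2 in mesenchyme. Gstm3, a glutathione transferase, had 55.9, 88.6 and 44.2 CPM in epithelium and 2.48, 1.76 and 1.22 CPM in mesenchyme. Of 34 Cyp genes tested out of 94, 16 were higher in epithelium and 10 in mesenchyme. Cyp2c65, one of several close copies of the Cyp2c group, had 84.1, 115 and 46.6 CPM in epithelium and 0, 1.37 and 0.803 CPM in mesenchyme, and Cyp3a13 differed by 5.71 ± 0.33. Cyp26b1, which breaks down retinoic acid, had 1.07, 0.649 and 1.7 CPM in epithelium and 28.2, 13 and 20.8 CPM in mesenchyme. Cyp7b1, an oxysterol hydroxylase, had 1.12, 0.324 and 0.20 CPM in epithelium and 14.6, 16.4 and 17.2 CPM in mesenchyme, and both were lower in epithelium.

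Of the genes of mucus, glycosylation and secretion, 20 of 37 tested (40 looked for) were higher in epithelium and 6 in mesenchyme, with a median of 0.75. Muc13, a membrane mucin, had 709, 631 and 549.6 CPM in epithelium and 18.9, 5.38 and 10.9 CPM in mesenchyme. Agr2, a disulfide isomerase needed for mucin folding, had 42.3, 30.6 and 39.7 CPM in epithelium and 1.24, 0.342 and 2.26 CPM in mesenchyme. Gcnt3, which branches mucin sugars, differed by 4.44 ± 0.42. Sec24d, a coat protein of vesicles that carry procollagen, went the other way, with 31.1, 22.6 and 21.8 CPM in epithelium and 303, 294 and 246 CPM in mesenchyme, as did B3gnt5, which starts a class of glycolipid chains (-3.90 ± 0.29).

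Of 29 transcription factors chosen as epithelial, all tested, 24 were called higher in epithelium and 2 in mesenchyme, with a median of 3.46. Elf3, an Ets factor of epithelia, had 344, 333 and 313 CPM in epithelium and 11.2, 3.77 and 7.84 CPM in mesenchyme, a difference of 5.55 ± 0.39 (adjusted p = 7.03e-05, edgeR). Isx, an intestine-specific homeobox factor, had 237, 261 and 255 CPM in epithelium and 13.9, 1.76 and 6.5 CPM in mesenchyme. Grhl3, a grainyhead factor, differed by 4.95 ± 0.37, and Klf5, a Krüppel-like factor of proliferating epithelium, by 4.98 ± 0.61. Foxa1 and Foxa3, forkhead factors of endoderm, differed by 4.85 ± 0.62 and 4.62 ± 0.49. Sox9, a factor of progenitor cells, had 116, 124 and 154 CPM in epithelium and 25.1, 12.5 and 10.8 CPM in mesenchyme. The 2 members higher in mesenchyme were Maf, a large leucine zipper factor, and Creb3l1, a membrane-bound factor that drives collagen genes in bone. Maf had 8.71, 7.88 and 6.2 CPM in epithelium and 77.8, 79.5 and 64.7 CPM in mesenchyme. Creb3l1 had 28.1, 21.2 and 27.8 CPM in epithelium and 167, 77.7 and 81.4 CPM in mesenchyme.

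Splicing regulators split by member. Of 26 tested, 7 were called higher in epithelium and 14 in mesenchyme, with a median of -1.07. Esrp1, which sets epithelial splice forms, had 297, 289 and 319 CPM in epithelium and 18, 6.99 and 7.26 CPM in mesenchyme, a difference of 4.94 ± 0.39. A1cf, a cofactor of apolipoprotein B editing, differed by 5.22 ± 0.26. On the other side lay neural regulators: Elavl3 had 3.66, 1.48 and 1.2 CPM in epithelium and 59.2, 39.9 and 53.5 CPM in mesenchyme, Elavl4 differed by -4.25 ± 0.35, Srrm4 by -4.47 ± 0.55 and Nova2 by -4.45 ± 0.77. Those moved with the enteric neural crest markers, 13 of 14 of which were higher in mesenchyme, and the part of nerve cells in their difference was not tested.

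**Figure D3:**
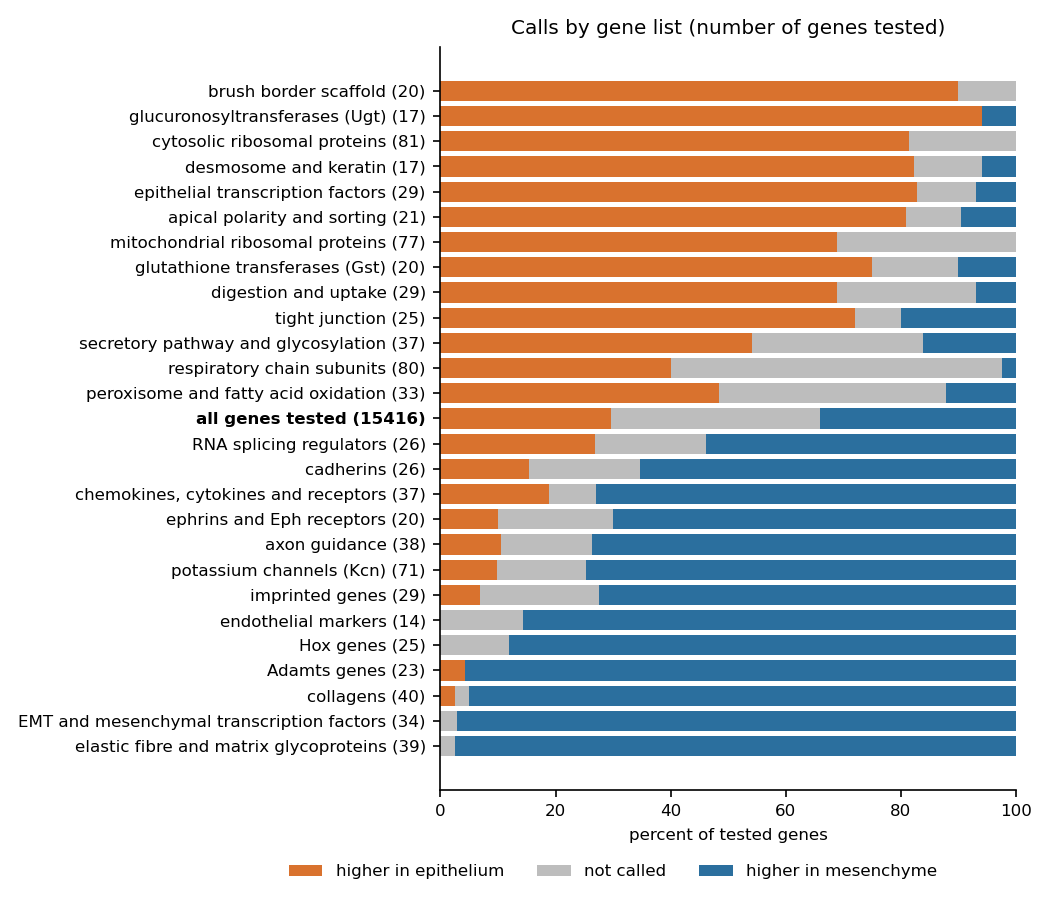
Percent of tested genes in each of 26 lists or families, and of all genes tested, that were called higher in epithelium (left), not called (middle) or higher in mesenchyme (right) at adjusted p under 0.05, with the number tested in parentheses. Brush border genes, Ugt genes (labelled glucuronosyltransferases) and keratin genes lie at one end, and collagens, matrix genes and mesenchymal transcription factors at the other. All genes tested stand at 29.6% and 34.1%.

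Promoter sequences of the classes are given as a description, with no test. In the RefSeq table of GRCm38.p6, which gives 250 bases before and 50 after a gene's start, 555 of the 749 genes at least 8-fold higher in epithelium, 1564 of the 2232 at least 8-fold higher in mesenchyme and 11949 of the 15416 tested had an entry. The letters CACCTG, read on either strand, an E-box form bound by Snai and Zeb factors, stood in 36.2% of promoters of the epithelial class, 17.1% of the mesenchymal class, 15% of genes alike in both layers and 18.2% of all tested. By CG dinucleotides in the promoter, the shares of the epithelial class, the mesenchymal class and all tested were 27.5%, 16% and 22.1% with at most 5, 39.9%, 18.6% and 20.4% with 6 to 15, and 46.4%, 16.7% and 16.6% with more than 15. Promoters of the epithelial class held a median of 7 CG dinucleotides, those of the mesenchymal class 12 and those of all genes tested 20. A match describes the letters in this window and says nothing of binding. Printed here are 5 promoters of epithelial genes with 2 or more matches and 1 promoter of a mesenchymal gene without one, chosen after their values were seen to show how the matches lie. They are the 250 bases before the start, 5′ to 3′ on the strand of the gene, from RefSeq on GRCm38.p6, with each CACCTG or its reverse complement CAGGTG in capitals.
Epcam: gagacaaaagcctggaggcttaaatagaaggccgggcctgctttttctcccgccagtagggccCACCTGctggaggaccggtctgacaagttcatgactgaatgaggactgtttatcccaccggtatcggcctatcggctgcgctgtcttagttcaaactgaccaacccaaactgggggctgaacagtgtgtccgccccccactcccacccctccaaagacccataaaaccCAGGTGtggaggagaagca
Crb3: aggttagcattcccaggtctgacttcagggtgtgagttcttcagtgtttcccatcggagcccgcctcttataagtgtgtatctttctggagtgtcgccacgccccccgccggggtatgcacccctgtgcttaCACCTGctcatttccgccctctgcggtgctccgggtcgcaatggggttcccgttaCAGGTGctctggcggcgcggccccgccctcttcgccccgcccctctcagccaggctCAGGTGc
Ap1m2: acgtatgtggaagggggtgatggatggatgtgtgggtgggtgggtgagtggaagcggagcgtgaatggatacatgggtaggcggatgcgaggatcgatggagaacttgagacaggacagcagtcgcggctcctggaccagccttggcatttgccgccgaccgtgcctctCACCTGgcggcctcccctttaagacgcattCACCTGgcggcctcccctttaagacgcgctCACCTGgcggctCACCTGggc
Spint2: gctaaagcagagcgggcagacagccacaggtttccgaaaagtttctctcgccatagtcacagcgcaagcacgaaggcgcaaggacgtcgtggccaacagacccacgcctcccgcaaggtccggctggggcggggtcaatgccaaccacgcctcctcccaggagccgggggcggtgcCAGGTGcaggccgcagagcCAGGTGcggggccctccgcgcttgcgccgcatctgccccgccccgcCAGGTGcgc
Rab25: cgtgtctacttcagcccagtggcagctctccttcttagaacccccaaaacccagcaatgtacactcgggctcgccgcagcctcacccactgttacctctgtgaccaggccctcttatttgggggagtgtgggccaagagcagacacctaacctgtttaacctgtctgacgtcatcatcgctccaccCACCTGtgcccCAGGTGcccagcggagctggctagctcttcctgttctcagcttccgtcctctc
Pdgfra: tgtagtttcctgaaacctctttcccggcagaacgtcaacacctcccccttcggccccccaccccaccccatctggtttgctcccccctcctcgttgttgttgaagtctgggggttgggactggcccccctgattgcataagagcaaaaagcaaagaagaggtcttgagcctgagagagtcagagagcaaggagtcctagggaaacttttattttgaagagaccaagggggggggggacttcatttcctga
Epcam lies at chr17:87635729-87635978 on the plus strand, Crb3 at chr17:57061951-57062200 on the plus strand, Ap1m2 at chr9:21312334-21312583 on the minus strand, Spint2 at chr7:29281978-29282227 on the minus strand, Rab25 at chr3:88548280-88548529 on the minus strand and Pdgfra at chr5:75152001-75152250 on the plus strand. Ap1m2 holds 4 matches, Crb3 and Spint2 hold 3 each, and Epcam and Rab25 hold 2 each. Spint2, an inhibitor of membrane serine proteases, had 929.5, 914 and 886 CPM in epithelium and 40.6, 35.9 and 33.2 CPM in mesenchyme. A count of matches among the genes named by rule left out those on 1 chromosome, and may not cover every other one with a promoter entry. It read the 250 bases before the start only, whereas the class shares above also cover the 50 bases after it. Of the promoters counted, 33 of 109 higher in epithelium and 20 of 139 higher in mesenchyme held at least 1 match. In the same order, 8 and 2 held 2 or more. The printed epithelial promoters are thus among the few with several matches. Those of Vil1, Ezr, Muc13 and Cldn7, also higher in epithelium, held none, and those of Snai1 and Elavl3, higher in mesenchyme, held 1 each.

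The shares of other short motifs lay closer together in percentage points. All of them but CCAAT were also rarer than CACCTG over all promoters tested, so the points do not compare relative differences. GTTAAT, part of the site of Hnf1 factors, stood in 12.3% of the epithelial class, 5.88% of the mesenchymal class and 4.50% of all promoters tested. CAAAGTC, part of the Hnf4 site, stood in 8.47%, 4.92% and 3.89%, and TGANTCA, the AP-1 site, in 10.1%, 5.95% and 5.04%. TATAAA stood in 15%, 9.65% and 7.52%, and CCAAT in 32.1%, 33.0% and 38.4%. ACCACCC stood in 7.57%, 4.54% and 4.78%, and TTTATTG in 3.78%, 2.43% and 2.68%. Matches were read on both strands and overlaps with other motifs were kept. With at most 5 CG dinucleotides, GTTAAT stood in 18.9% of the epithelial class, 10.2% of the mesenchymal class and 10.8% of all tested. With 6 to 15 these shares were 10.1%, 6.34% and 6.78%, and with more than 15 they were 3.92%, 3.01% and 2.42%. Those of CAAAGTC were 11.9%, 7.11% and 6.19%, then 9.49%, 5.74% and 5.9%. With more than 15 they were 1.96%, 3.01% and 2.68%, lowest in the epithelial class.

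Collagen genes lay almost wholly on the mesenchymal side. Of 44 collagen genes, 40 were tested, 38 were higher in mesenchyme and 1 was higher in epithelium, with a median of -4.46. Without epithelium 1 the median was -5.50. Col3a1, a fibrillar collagen, had 547, 109 and 57.7 CPM in epithelium and 3523, 5519.7 and 6638 CPM in mesenchyme, a difference of -4.46 ± 0.89 (adjusted p = 0.00387, edgeR). Col1a1 had 181, 52.1 and 29.8 CPM in epithelium and 3141, 1901 and 2545 CPM in mesenchyme. Col6a1, a beaded filament collagen, had 171, 58.4 and 21.7 CPM in epithelium and 2183, 2514 and 2635 CPM in mesenchyme. Col4a1, a basement membrane collagen, had 158, 43.1 and 22.8 CPM in epithelium and 1729, 2167 and 2172 CPM in mesenchyme. The groups stood apart for each of these, and for all 4 epithelium 1 was the highest and epithelium 3 the lowest of the epithelium libraries. Col11a2 alone among the called collagens was higher in epithelium, with 16.3, 20.1 and 17.9 CPM in epithelium and 4.34, 9.68 and 6.35 CPM in mesenchyme.

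Of 39 elastic fibre and matrix glycoprotein genes tested out of 41, 38 were higher in mesenchyme and none in epithelium, with a median of -4.19 (-4.93 without epithelium 1). Fbn1, fibrillin of elastic microfibrils, had 33.4, 6.86 and 3.35 CPM in epithelium and 512, 434 and 547 CPM in mesenchyme. Fn1, fibronectin, had 157, 107 and 146 CPM in epithelium and 1852, 1206 and 1071 CPM in mesenchyme, a difference of -3.33 ± 0.28, so that its epithelial level did not follow the order of the collagens. Thbs2, a matricellular thrombospondin, differed by -5.43 ± 0.88. Of 23 Adamts genes tested, matrix proteases and their relatives, 22 were higher in mesenchyme with a median of -4.41 (-5.37 without epithelium 1), and Adamtsl5 was higher in epithelium (34.7, 26.5 and 25.1 CPM in epithelium and 4.34, 4.74 and 2.94 CPM in mesenchyme). Mmp2, a gelatinase, had 68.1, 27.6 and 8.8 CPM in epithelium and 947, 986 and 1116 CPM in mesenchyme. All 3 Timp genes tested, which encode inhibitors of matrix proteases, were higher in mesenchyme.

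Laminins and integrins, which join cells to the basement membrane, divided by chain. Of 11 laminin genes tested, 2 were higher in epithelium and 7 in mesenchyme. Lamb3, a chain of an epithelial laminin, had a difference of 4.81 ± 0.41. Lama2 and Lama4, chains of muscle and vessel laminins, differed by -5.42 ± 0.78 and -4.87 ± 0.86, and Lamb1, a widely used chain, by -2.71 ± 0.20. Of 25 integrin genes tested, 6 were higher in epithelium and 16 in mesenchyme. Itgb6, a beta chain of epithelia, had 17.2, 17.5 and 19.3 CPM in epithelium and 1.86, 0.489 and 0.268 CPM in mesenchyme. Itga6, a laminin receptor chain, had 112, 107 and 122 CPM in epithelium and 81.8, 68.8 and 68.7 CPM in mesenchyme. Itga9, a receptor chain for tenascin, had 9.92, 2.96 and 2.15 CPM in epithelium and 159, 126 and 199.9 CPM in mesenchyme, lower in epithelium.

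Cadherins switched by member. Of 29 cadherin superfamily genes looked for, 26 were tested, 4 were called higher in epithelium and 17 in mesenchyme, with a median of -4.03 (-4.91 without epithelium 1). Cdh17, the liver-intestine cadherin, had 697, 803 and 697 CPM in epithelium and 20.8, 7.04 and 18.4 CPM in mesenchyme, beside Cdh1 above. Cdh2, N-cadherin, had 9.47, 3.24 and 4.15 CPM in epithelium and 113, 114 and 143 CPM in mesenchyme. Cdh11, a cadherin of fibroblasts, had 40.3, 16.4 and 8.9 CPM in epithelium and 373, 524 and 648 CPM in mesenchyme, and Cdh5, the cadherin of vessels, differed by -5.14 ± 0.81. Fat4 and Dchs1, a receptor and ligand pair of giant cadherins, differed by -6.01 ± 0.90 and -5.16 ± 0.97, and Fat4 had 17.2, 5.56 and 1.65 CPM in epithelium and 786, 307 and 488 CPM in mesenchyme. Of 71 protocadherin genes tested, 69 were higher in mesenchyme. These include 22 Pcdhg genes, which share their last exons and had means of 45.4 to 58.5 CPM in epithelium and 379 to 564 CPM in mesenchyme, and 17 Pcdha genes of the same kind, so they are not independent entries.

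Mesenchymal transcription factors were on one side without exception among the called. Of 43 looked for, 34 were tested, 33 were higher in mesenchyme and none in epithelium, with a median of -4.17 (-4.96 without epithelium 1). Zeb2, a repressor of epithelial genes, had 16.1, 6.49 and 3.0 CPM in epithelium and 285, 209 and 285 CPM in mesenchyme, a difference of -4.92 ± 0.61 (adjusted p = 0.000449, edgeR). Snai1, which represses E-cadherin, had 1.65, 0.695 and 0.55 CPM in epithelium and 51.8, 23.8 and 23.4 CPM in mesenchyme. Snai2, a close relative, had 5.54, 1.25 and 0.80 CPM in epithelium and 106, 85.5 and 102 CPM in mesenchyme. In all 3 the highest epithelium library lay below the lowest mesenchyme library. Nkx2-3, a homeobox factor of gut mesoderm, differed by -4.86 ± 0.57, and Foxl1, a forkhead factor of cells under the epithelium, by -5.08 ± 0.47. Of 25 Hox genes tested out of 39, 22 were higher in mesenchyme and none in epithelium, with a median of -3.73. Hoxc4, a patterning factor, had 1.34, 1.07 and 0.80 CPM in epithelium and 67.6, 38.6 and 38.3 CPM in mesenchyme. Hoxa5 had 6.84, 5.37 and 2.7 CPM in epithelium and 110.3, 123 and 122 CPM in mesenchyme. The Hox genes sit in clusters whose transcripts can overlap.

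Of 38 genes of the cytoskeleton and intermediate filaments, all tested, 27 were higher in mesenchyme, 3 were higher in epithelium and 8 were not called, with a median of -2.62. Myh11, smooth muscle myosin, had 89.3, 16.6 and 9.15 CPM in epithelium and 842, 1306 and 1241 CPM in mesenchyme. Synpo2, an actin-binding protein of muscle, differed by -5.37 ± 0.80 and Lmod1, a leiomodin of smooth muscle, by -4.98 ± 0.59. Mylk, the kinase of smooth muscle myosin, had 64.7, 29.6 and 15.9 CPM in epithelium and 1118, 1209.9 and 1112 CPM in mesenchyme. Myh14, a nonmuscle myosin, was the opposite, with 359.6, 316 and 286 CPM in epithelium and 11.2, 11.5 and 12.5 CPM in mesenchyme. The tropomyosin gene Tpm3 had 360.1, 377 and 359 CPM in epithelium and 180.1, 180.3 and 158 CPM in mesenchyme, also higher in epithelium.

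Guidance and attraction signals were mostly mesenchymal. Of 38 axon guidance genes, all tested, 28 were higher in mesenchyme and 4 in epithelium (median -3.01). Ntn1, netrin, had 9.16, 1.71 and 0.95 CPM in epithelium and 201, 144 and 192 CPM in mesenchyme, and Slit3, a repellent, differed by -5.05 ± 0.71. The semaphorins Sema3b and Sema4a went the other way, at 3.68 ± 0.18 and 3.32 ± 0.43. Of 20 ephrin and Eph genes, 14 were higher in mesenchyme and 2 in epithelium. Those 2 were the receptors Epha1 and Epha2. Epha1 had 33.7, 37.2 and 32.7 CPM in epithelium and 7.44, 4.55 and 3.29 CPM in mesenchyme. Epha2 had 115, 123 and 122 CPM in epithelium and 36.9, 26.3 and 31.7 CPM in mesenchyme, and the ephrin Efna5 differed by -4.25 ± 0.46. Of 37 chemokine and cytokine genes tested out of 44, 27 were higher in mesenchyme and 7 in epithelium. Il22ra1, the epithelial subunit of the interleukin 22 receptor, had 199.9, 208 and 173 CPM in epithelium and 6.82, 3.08 and 5.2 CPM in mesenchyme. Cx3cl1, a membrane chemokine, had 31.2, 30.1 and 21.5 CPM in epithelium and 3.1, 1.57 and 1.53 CPM in mesenchyme. Ccl11, an eosinophil attractant, had 2.68, 1.2 and 1.1 CPM in epithelium and 54.9, 68.6 and 79 CPM in mesenchyme, lower in epithelium. Of 71 potassium channel genes tested, 53 were higher in mesenchyme and 7 in epithelium, and with libraries thinned to the shallowest 28 were higher in mesenchyme. Kcnk1, a background channel, had 69.6, 84.6 and 68.6 CPM in epithelium and 4.65, 5.04 and 3.82 CPM in mesenchyme. Kcnd3, a channel of excitable cells, had 8.67, 0.834 and 0.90 CPM in epithelium and 179, 90.4 and 147 CPM in mesenchyme.

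Most marker lists of other cell types of the gut wall lay on the mesenchymal side. Of 14 enteric neural crest markers tested, 13 were higher in mesenchyme and 1, Erbb3, was higher in epithelium. Of 14 endothelial markers, 12 were higher in mesenchyme, and Cdh5 had 15.1, 3.8 and 1.4 CPM in epithelium and 245, 214 and 258 CPM in mesenchyme. All 11 macrophage and leukocyte markers tested were higher in mesenchyme, and Ptprc, the leukocyte antigen CD45, had 1.25, 2.08 and 0.35 CPM in epithelium and 8.99, 28.1 and 22.8 CPM in mesenchyme. All 6 markers of interstitial cells of Cajal, the pacemaker cells, were higher in mesenchyme, and 6 of 7 erythroid markers tested were. Of 8 mesothelial markers tested, 6 were higher in mesenchyme and Krt19, which epithelia also express, was higher in epithelium. No list of these was at 0 in a layer: the summed CPM in epithelium 1, 2 and 3 was 35, 41.8 and 19.8 for macrophages and 299, 266 and 253 for neural crest with Erbb3, against 270.2, 338 and 290.4 and 856, 758 and 953 in mesenchyme 1, 2 and 3. Of 14 liver and pancreas markers, 7 were tested, with 3 higher in epithelium and none in mesenchyme. Of these 3, Afp, a protein of fetal liver and yolk sac, had 10.5, 19.2 and 15.8 CPM in epithelium and 0.93, 1.03 and 0.574 CPM in mesenchyme. Ttr, a thyroid hormone carrier, differed by 2.74 ± 0.81, and Serpina1a, an antiprotease of liver, differed by 2.60 ± 0.52. The summed CPM of the 14 markers was 55.7, 66.8 and 44.1 in epithelium 1, 2 and 3. It was 10.2, 357 and 8.3 in mesenchyme 1, 2 and 3, so mesenchyme 2 stood above every epithelium library. Ctrb1, a pancreatic gene, had 226 CPM in mesenchyme 2 and was not called. A difference in a gene that these cells share with fibroblasts and muscle cannot be divided between them here, and their part was not tested.

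Ligands and receptors lay in opposite layers for 13 of 47 pairs in which both genes were tested, out of 50 pairs looked for. For comparison, 29.6% of all genes tested were higher in epithelium and 34.1% in mesenchyme. The number of opposite pairs to be met at these shares was not worked out, so the count is a description. In 8 pairs the ligand was higher in epithelium and the receptor higher in mesenchyme, in 5 the reverse held, in 25 both were higher in mesenchyme and in 0 were both higher in epithelium. Shh, a Hedgehog ligand, had 67.6, 99.7 and 159 CPM in epithelium and 9.3, 0.391 and 6.77 CPM in mesenchyme. Ihh, the other Hedgehog ligand here, had 158, 194 and 188 CPM in epithelium and 12.1, 1.96 and 5.01 CPM in mesenchyme. Their receptor Ptch1 had 55.2, 46.9 and 47.4 CPM in epithelium and 765, 261 and 550.3 CPM in mesenchyme, a difference of -3.40 ± 0.39. The ligands and the receptor thus stood apart in opposite directions, with no overlap. Pdgfa, a ligand of Pdgfra, had 93.5, 115 and 116 CPM in epithelium and 42.1, 47.8 and 51.7 CPM in mesenchyme. Areg, a ligand of the EGF receptor, had 177, 133 and 136 CPM in epithelium and 3.72, 1.47 and 0.535 CPM in mesenchyme, a difference of 6.80 ± 0.57 (adjusted p = 0.000115, edgeR). Egfr, its receptor, had 35.2, 38.3 and 33.5 CPM in epithelium and 98.5, 61.2 and 97.7 CPM in mesenchyme. Sema3c and its receptor Nrp2 differed by 1.10 ± 0.23 and -2.29 ± 0.18, the cytokine Lif and its receptor Lifr by 3.04 ± 0.52 and -4.72 ± 0.39, and endothelin Edn1 and its receptor Ednra by 2.77 ± 0.59 and -4.74 ± 0.79. Fgf9 had 12.1, 11.3 and 13.4 CPM in epithelium and 8.06, 6.85 and 8.64 CPM in mesenchyme, and its call was lost with libraries thinned to the shallowest (0.76, adjusted p = 0.0512, edgeR), without epithelium 3 (log2 0.60, adjusted p = 0.0677, edgeR) and without mesenchyme 2 (0.55, adjusted p = 0.0549, edgeR).

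In the reverse direction Hgf, hepatocyte growth factor, had 6.17, 1.48 and 1.3 CPM in epithelium and 22.3, 25.7 and 26.7 CPM in mesenchyme, and its receptor Met had 118, 135 and 128 CPM in epithelium and 27.9, 15.4 and 23.2 CPM in mesenchyme. Nrg1, a neuregulin, had 1.03, 1.07 and 0.40 CPM in epithelium and 35, 30.9 and 25.7 CPM in mesenchyme. Its receptor Erbb3 had 221, 219.9 and 214 CPM in epithelium and 32.5, 37.9 and 44.2 CPM in mesenchyme. Rspo3 and Rspo1, which strengthen Wnt signals, differed by -5.10 ± 0.58 and -3.73 ± 0.62, and their receptors Lgr4 and Lgr5 by 2.21 ± 0.15 and 3.41 ± 1.07. The call of Lgr5 was lost on leaving out epithelium 3 (adjusted p = 0.0887, edgeR), mesenchyme 2 (adjusted p = 0.0919, edgeR) or mesenchyme 3 (adjusted p = 0.0925, edgeR), with log2 values of 2.47, 2.84 and 2.70. Beyond these pairs, the EGF ligand Btc differed by 6.07 ± 0.31. The neuregulin gene Nrg2 differed by -5.34 ± 0.45 and Igf1, an insulin-like growth factor, by -5.01 ± 0.51. Of 19 retinoic acid genes tested out of 27, 6 were higher in epithelium and 11 in mesenchyme. Rbp4, a retinol carrier, had 97.7, 94 and 105 CPM in epithelium and 4.34, 3.18 and 3.06 CPM in mesenchyme, and Adh1, a retinol dehydrogenase, differed by 5.56 ± 0.38. Aldh1a2 and Aldh1a3, which make retinoic acid, differed by -4.78 ± 0.33 and -4.84 ± 0.29.

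**Figure D4:**
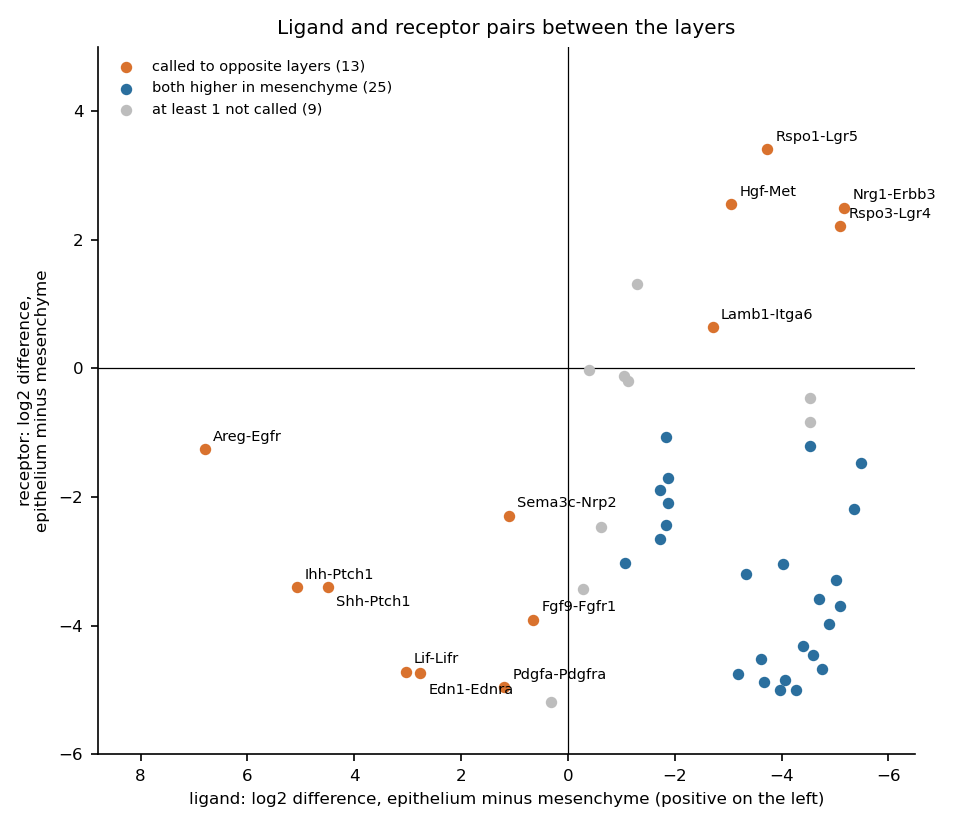
Log2 difference, epithelium minus mesenchyme, of the ligand (horizontal axis, positive on the left) and of its receptor (vertical axis) for 47 pairs. The 13 pairs called to opposite layers are named, with 8 at lower left and 5 at upper right, and the 25 pairs with both genes higher in mesenchyme fill the lower right.

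Imprinted genes, of which only the copy from one parent is used in many tissues, were mostly higher in mesenchyme. Of 29 tested, 21 were higher in mesenchyme and 2 in epithelium, with a median of -2.09 (-1.40 without mesenchyme 1). Peg10, a retrotransposon-derived gene, had 26, 9.77 and 6.1 CPM in epithelium and 736, 382 and 512 CPM in mesenchyme. Mest had 98.3, 26.6 and 16.4 CPM in epithelium and 930.3, 935 and 934 CPM in mesenchyme. The 2 genes higher in epithelium were Phlda2, a growth-restraining gene, and Slc22a18, a transporter gene. Phlda2 had 6.84, 6.58 and 6.0 CPM in epithelium and 0, 0.685 and 0.726 CPM in mesenchyme. Slc22a18 had 9.65, 10.8 and 5.7 CPM in epithelium and 0.93, 0.391 and 0.306 CPM in mesenchyme. H19, a long noncoding RNA, had 4105, 5227 and 5453 CPM in epithelium and 4563, 5483 and 5166 CPM in mesenchyme, with overlap and a difference of -0.04 ± 0.19. Its neighbour Igf2, chosen after its values were seen, had 1388, 1523 and 1675 CPM in epithelium and 4728, 2414 and 2347 CPM in mesenchyme, a difference of -1.05 ± 0.30 (adjusted p = 0.0191, edgeR).

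A smaller set was alike within a stated interval. The 95% interval of the log2 difference lay within -0.5 to 0.5 for 877 genes (5.69%). The 8 of them with the highest mean CPM were H19, Tubb5, Eif4g2, Ctnnb1, Chd4, Mki67, Tnks2 and Hnrnpk. Ctnnb1, beta-catenin of junctions and Wnt signalling, had 1368, 1365 and 1283 CPM in epithelium and 1042, 1372 and 1503 CPM in mesenchyme, with an interval of -0.39 to 0.46. Mki67, a marker of cycling cells, had 514, 540.4 and 643 CPM in epithelium and 578, 496 and 499.8 CPM in mesenchyme, with an interval of -0.25 to 0.47. Tubb5, a tubulin, had 1667, 1815 and 1985 CPM in epithelium and 1742, 1745 and 1736 CPM in mesenchyme.

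Differences of genes of translation and energy supply were small. Of 81 cytosolic ribosomal protein genes tested out of 84, 66 were called higher in epithelium and none in mesenchyme, with a median of 0.79. Rps2, a small subunit protein, had 446, 437 and 459.7 CPM in epithelium and 155, 225 and 179.7 CPM in mesenchyme, a difference of 1.26 ± 0.17 (adjusted p = 0.000582, edgeR). Of 77 mitochondrial ribosomal protein genes, 53 were called higher in epithelium and none in mesenchyme, with a median of 0.89, and Mrps18b had 84.8, 90.3 and 87.5 CPM in epithelium and 16.7, 23.6 and 16.3 CPM in mesenchyme. Of 80 respiratory chain genes tested, 32 were higher in epithelium and 2 in mesenchyme, with a median of 0.67, and 46 were not called. The fatty acid oxidation gene Acadl, an acyl-CoA dehydrogenase, had 218, 235 and 167 CPM in epithelium and 32.8, 64 and 55.1 CPM in mesenchyme, and of 33 genes of its list 16 were higher in epithelium and 4 in mesenchyme.

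These small differences moved with mesenchyme 1 and with transcript length. The summed CPM of the cytosolic ribosomal proteins in mesenchyme 1, 2 and 3 was 35.7%, 66.7% and 59.9% of the epithelium mean, and that of the respiratory chain 35.8%, 70.3% and 63.2%. Without mesenchyme 1 the medians were 0.60 and 0.42, still positive. The genes called higher in epithelium then numbered 74 of the ribosomal list and 41 of the respiratory list. They numbered 39 and 14 without epithelium 2, and 43 and 19 without mesenchyme 3. Ribosomal protein transcripts have a median length of 799 bases and respiratory chain transcripts of 738, against 2911 for all genes tested. From the shortest to the longest of 5 equal groups of transcripts the median log2 difference was 0.35, 0.17, 0.01, -0.19 and -0.43, and without mesenchyme 1 it was 0.24, 0.13, 0.01, -0.15 and -0.28. The part of length or of RNA quality in these differences was not tested.

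**Figure D5:**
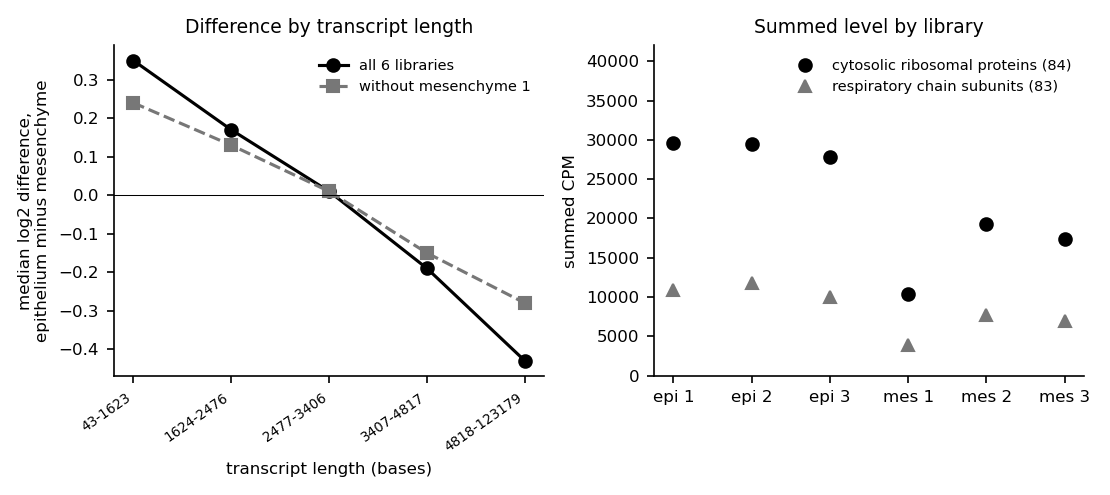
Left, median log2 difference, epithelium minus mesenchyme, of tested genes in 5 equal groups by transcript length, with all 6 libraries (circles) and without mesenchyme 1 (squares). Right, summed CPM of 84 cytosolic ribosomal protein and 83 respiratory chain genes in each library, in which mesenchyme 1 is the lowest.

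Several of the leading genes lay outside the lists. By counts taken, the leading genes at least 8-fold higher in epithelium were Cdh1, Epcam, Cps1, Lgals4, Lgals6, Tfrc, Reg3b, Spint2, Ndrg1, Cdh17, Ezr and Muc13. Cps1, the urea cycle enzyme that fetal gut uses to make citrulline, had 1906, 2295 and 2299 CPM in epithelium and 68.2, 13.6 and 47.2 CPM in mesenchyme. Tfrc, the transferrin receptor, had 1070.1, 1352 and 1417 CPM in epithelium and 148, 133 and 184 CPM in mesenchyme. Lgals4, a galectin of epithelia, had 1805, 1931 and 1481 CPM in epithelium and 39.4, 24 and 39.9 CPM in mesenchyme, but its near copy Lgals6 had a similar pattern and reads of the pair may be shared. Reg3b, an antimicrobial lectin, had 2793, 269 and 105 CPM in epithelium and 7.44, 8.8 and 0.0765 CPM in mesenchyme, so that epithelium 1 held most of its signal, and its difference was 7.71 ± 1.89 with all libraries and 5.23 without epithelium 1.

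Among called genes with at least 10 CPM, Tdh, threonine dehydrogenase, had 12.2, 11.9 and 11.6 CPM in epithelium and 0, 0.147 and 0.0765 CPM in mesenchyme. Lypd8, a secreted Ly6 protein of the colon, had 559, 323 and 222 CPM in epithelium and 3.41, 7.97 and 1.53 CPM in mesenchyme. Dmbt1, a scavenger glycoprotein of mucosa, had 51.7, 38.5 and 4.95 CPM in epithelium and 0, 0.636 and 0.229 CPM in mesenchyme. On the other side Sox7, a factor of endothelium, had 3.04, 1.07 and 1.05 CPM in epithelium and 136, 56 and 74.6 CPM in mesenchyme. Srpx2, a secreted sushi-domain protein, had 0.67, 0.88 and 0.40 CPM in epithelium and 29.1, 35.8 and 55.1 CPM in mesenchyme. Chrdl1, a chordin-like antagonist, had 0.313, 0.324 and 0.20 CPM in epithelium and 13, 15.4 and 19.3 CPM in mesenchyme.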

How the data were processed

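The authors deposited whole read counts per gene, and the epithelium and mesenchyme columns were used as deposited. TopHat2 2.0.13, the build mm9 and DESeq are named in the submitters' processing notes. Which program counted reads, on which annotation and with or without strand, is not given in the sources used here. Overlapping, antisense and near-identical genes are therefore uncertain. The deposited ratio, p-values and signal means of the authors' own test were not used. Of 24016 identifiers, 27 symbols stored as dates were named from the GRCm38 RefSeq table, and 3 rows (Rn45s, Lars2 and Mir6236) were removed before scaling.

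Counts were tested with edgeR 4.0.16 in R 4.3.3 (filterByExpr, minimum count 10, TMM scaling, quasi-likelihood test, two-sided, Benjamini-Hochberg over 15416 genes, threshold 0.05), 3 against 3 libraries with no block. On simulated counts with 100 genes changed 2-fold the test recovered 95% of them. That simulation also changed 100 genes 4-fold, evenly in both directions, among 15592 tested. Genes of low level were not changed, and the spread was set rather than taken from these libraries. The recovery therefore does not describe power in the real data, where most genes were called. Alternatives used limma 3.58.1 and DESeq2 1.42.0, other scalings and filters, equal depth, and each library left out. Transcript lengths came from the GENCODE annotation for 98.3% of genes tested, as the longest transcript matched to the RefSeq identifier of a gene. The shallowest library, mesenchyme 1, limits the precision for genes of low level.

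Genes were named by rule: the 6 markers; the 12 genes per direction with the most counts and the 12 with the largest differences; up to 4 called members of a list in its main direction and up to 2 against it; the 8 alike genes with the highest CPM; the genes that vary most within a layer; and pairs in opposite layers. Members, lists and motifs were chosen with earlier results of these data known. Genes said to be chosen after their values were seen lie outside the rule.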

Additional observations from a re-analysis of the deposited data

How the results depend on the processing

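Leaving out each library in turn gave 3695 to 5347 genes higher in epithelium and 4651 to 5758 higher in mesenchyme, beside 4558 and 5252 with all 6. The counts at least 8-fold higher ranged from 726 to 812 in epithelium and from 2188 to 2482 in mesenchyme. Other scalings gave 4369 to 4684 and 5197 to 5403, libraries thinned to the shallowest 3817 and 4085, an adjusted p of 0.01 3268 and 4332, DESeq2 4918 and 5357, and limma-voom 4961 and 5415. No scaling moved the median of all genes by over 0.05 on the log2 scale. With an interval of -0.3 to 0.3, 25 genes were alike in both layers, against 877 with -0.5 to 0.5. A replicate block gave 4313 and 4984 calls. The numbers were not taken as pairs because the labels do not say that a number marks a shared animal or day. The correlation of deviations of equally numbered libraries was 0.06, 0.30 and -0.08. For unequally numbered libraries it ran from -0.26 to 0.13, and whether any libraries are paired was not tested. Xist, the RNA of the inactive X chromosome in females, had 0.581 CPM in epithelium 1 and 4211 CPM in mesenchyme 1. It had 3169 CPM in epithelium 3 and 1.3 CPM in mesenchyme 3. For Ddx3y, on the Y chromosome, these values were 72.3, 0, 0 and 151 CPM in the same order. By Xist and Ddx3y, the equally numbered libraries 1 and 3 differed in sex between the layers. Of 6203 values for named genes under the alternatives, 6132 kept direction and side of the threshold, 67 lost the call, 4 gained it and 0 reversed. Proteasome genes higher in epithelium numbered 12 of 37 with all libraries, 24 without mesenchyme 1, and 5, 3 and 7 without epithelium 1, 2 and 3. Over all genes tested, 4558 (29.6%) were higher in epithelium with all libraries. That number was 5347 without mesenchyme 1, and 3945, 3695 and 3876 without epithelium 1, 2 and 3. The cause of these changes was not tested. Counting depth, least in mesenchyme 1, limits genes of low level.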

Other observations

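Other families are set beside all genes tested, of which 29.6% were higher in epithelium and 34.1% in mesenchyme. Of 278 solute carrier genes tested, 104 were called higher in epithelium and 86 in mesenchyme, with a median of 0.18. Slc44a4, a choline transporter, had 58, 45 and 51.3 CPM in epithelium and 0.93, 0.783 and 0.879 CPM in mesenchyme. Slc28a2, a nucleoside transporter, had 73.9, 85.7 and 83.7 CPM in epithelium and 5.27, 1.37 and 1.84 CPM in mesenchyme. Slc18a3, the vesicular acetylcholine transporter, had 0.983, 0.278 and 0.050 CPM in epithelium and 20.5, 11.4 and 17.2 CPM in mesenchyme, lower in epithelium. Of 342 Zfp genes, 40 were higher in epithelium and 141 in mesenchyme (median -0.37). Of 51 orphan and adhesion receptor genes, 7 were higher in epithelium and 37 in mesenchyme. Gpr35 had 25.8, 21.9 and 21 CPM in epithelium and 1.86, 0.88 and 1.15 CPM in mesenchyme, and Gpr124, an adhesion receptor of vessels, had 37, 9.08 and 6.5 CPM in epithelium and 531, 348 and 433 CPM in mesenchyme. Of 21 serpin genes tested, 8 were higher in epithelium and 10 in mesenchyme. Serpinf2, antiplasmin, had 15.5, 12.5 and 15.1 CPM in epithelium and 0.62, 0.489 and 0.459 CPM in mesenchyme, and Serping1, the C1 inhibitor, had 3.26, 0.926 and 1.3 CPM in epithelium and 53.9, 52.9 and 68.3 CPM in mesenchyme.

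Some genes stood apart in 1 or 2 libraries. Rmrp and Rpph1, RNAs of ribonuclease complexes, had 4.16, 0.695 and 0.35 CPM in epithelium and 338, 0.196 and 1.03 CPM in mesenchyme, and 2.77, 0.649 and 0.40 CPM in epithelium and 341, 0.636 and 0.803 CPM in mesenchyme. Kcnq1ot1, a nuclear antisense RNA, had 22.3, 8.29 and 12.6 CPM in epithelium and 568, 11.7 and 8.45 CPM in mesenchyme. Mia3, Dhrsx, Ccdc82 and Ppp2r3d were at 0 in mesenchyme 1 and above 20 CPM in each other library. Mia3 had 113, 107 and 105 CPM in epithelium and 0, 172 and 176 CPM in mesenchyme. Ctrb1, a pancreatic protease, had 12.4, 9.5 and 0.40 CPM in epithelium and 0.93, 226 and 0.115 CPM in mesenchyme. Xist, the RNA of the inactive X chromosome in females, had 0.581, 1.67 and 3169 CPM in epithelium and 4211, 2.05 and 1.3 CPM in mesenchyme, and so was high in 1 library of each layer. Ddx3y, on the Y chromosome, had 72.3, 92.7 and 0 CPM in epithelium and 0, 133 and 151 CPM in mesenchyme, at 0 in those 2 libraries. Among 551 genes at least 8-fold higher in mesenchyme with at least 5 CPM in epithelium 1, the ratio of epithelium 3 to epithelium 1 had a median of 0.369, and for 19 collagen genes among them it was 0.143. For 191 (34.7%) of the 551 the ratio was at least 0.5. Fn1, with 157, 107 and 146 CPM in epithelium and 1852, 1206 and 1071 CPM in mesenchyme, and Ptch1, with 55.2, 46.9 and 47.4 CPM in epithelium and 765, 261 and 550.3 CPM in mesenchyme, are examples.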
